A study of Homo sapiens with 2 samples.

Results

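The genes described here code for the chains of basement membrane collagen IV and laminin, with nidogen and perlecan. They are COL4A1, COL4A2, LAMA4, LAMA5, LAMB1, LAMB2, LAMC1, NID1 and HSPG2, 9 genes taken by name from the 19362 genes of the deposited table, and all 9 passed a mean of 1 CPM (reads per 1e6 reads) over both libraries. The study sequenced RNA of FTC-133, an established human cell line from a follicular thyroid carcinoma, after transfection with siRNA against CHI3L1 (1 library) or with a control siRNA (1 library). CHI3L1 codes for a secreted chitin-binding glycoprotein. The sources used here give neither the time after transfection nor the number of cultures behind a library. There is no replicate check of any difference, so no p-value is given and each comparison is between these 2 libraries. Intervals are 95% intervals for counting error only.

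Basement membranes are thin sheets of matrix under epithelia and around vessels, nerves and muscle. Laminins, each a trimer of an alpha, a beta and a gamma chain, polymerise on the cell surface, and collagen IV trimers form a second network that is cross-linked at its ends. Nidogen and the heparan sulfate proteoglycan perlecan bind both. In the thyroid a basement membrane surrounds each follicle, and chains form their trimers inside the cell before export, so mRNA of single chains does not give the amount of assembled protein.

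The stretch between the collagen IV pair is shown first, because COL4A1 and COL4A2 lie head to head and are described below as a pair. It runs from chr13:110307158-110307283 on the plus strand of GRCh38.p14, between the start sites that RefSeq gives for COL4A1 (minus strand) and COL4A2 (plus strand), 126 bases with 80.2% G and C. GENCODE release 29 sets some start sites of both genes inside it, and starts 1 COL4A2 transcript outside it, within the first intron of COL4A1. The 250 bases upstream of LAMC1 (chr1:183023170-183023419, plus strand) and of LAMA5 (chr20:62367313-62367562, minus strand) follow, since these members had the highest and the lowest ratio of the 9, a choice made after their values were seen. Capitals mark the CCAAT box (CCAAT) and the GC box (GGGCGG) on either strand, and all sequences are from RefSeq, 5′ to 3′.
COL4A1 and COL4A2 gap: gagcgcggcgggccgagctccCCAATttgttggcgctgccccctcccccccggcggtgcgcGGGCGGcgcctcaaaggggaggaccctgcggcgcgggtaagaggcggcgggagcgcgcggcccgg
LAMC1 upstream: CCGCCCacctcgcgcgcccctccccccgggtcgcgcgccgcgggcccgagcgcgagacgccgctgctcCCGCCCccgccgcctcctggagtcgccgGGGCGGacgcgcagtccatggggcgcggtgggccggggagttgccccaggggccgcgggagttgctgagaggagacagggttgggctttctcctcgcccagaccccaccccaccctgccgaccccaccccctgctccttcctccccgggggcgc
LAMA5 upstream: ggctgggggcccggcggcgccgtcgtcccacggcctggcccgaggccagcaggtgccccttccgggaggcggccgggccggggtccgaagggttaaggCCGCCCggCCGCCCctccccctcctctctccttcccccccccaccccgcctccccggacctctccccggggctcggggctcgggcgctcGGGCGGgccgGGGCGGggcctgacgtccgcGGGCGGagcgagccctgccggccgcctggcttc
The gap holds 1 CCAAT box and 1 GC box, the LAMC1 stretch 3 GC boxes and the LAMA5 stretch 5. All 9 members had a RefSeq promoter, and 8 of 9 held a GC box in the 250 bases upstream, against 42.6% of 35116 RefSeq promoters (LAMA4 held none). A CCAAT box was found for COL4A1, COL4A2 and NID1, 3 of 9, against 32% of promoters. The windows of COL4A1 and COL4A2 both include the gap, so its CCAAT box and its GC box are counted for both genes. The letters TATAAA (10.7% of promoters) and ACGTG, a form of the core of hypoxia response elements (18.5%), were in 0 of the 9 windows. Other forms of that core were not searched. A match of letters is no evidence of binding.

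The library of CHI3L1 siRNA held 19467345 reads and that of control siRNA 15837449, as recovered from the steps of the CPM values. CHI3L1, the siRNA target, was at 48.6 CPM in the CHI3L1 siRNA library and 140.1 CPM in the control siRNA library. The 9 members had 71729 reads (0.368% of the library) with CHI3L1 siRNA and 37264 reads (0.235%) with control siRNA. Of thyroid markers, NKX2-1 was at 112 CPM with CHI3L1 siRNA and 88.6 CPM with control siRNA and PAX8 at 71.2 and 82.8 CPM in the same order, while thyroglobulin (TG) had 14 and 10 reads. Other cell types can also make these chains. Endothelial markers (6 of 8 in the table) summed to 16.7 CPM with CHI3L1 siRNA and 19.7 CPM with control siRNA, and immune markers (2 of 8) to 5.80 and 4.93 CPM. Fibroblast markers (8 of 8) summed to 7423 CPM with CHI3L1 siRNA and 3298 CPM with control siRNA, a gap carried by COL1A2 (4959 and 1814 CPM) and COL1A1 (1429 and 642 CPM). The other abundant genes of that list were closer, with THY1 at 745 CPM with CHI3L1 siRNA and 558 CPM with control siRNA and FAP at 239.8 and 223 CPM in that order, while LUM was lower with CHI3L1 siRNA, at 40.2 and 51.8 CPM. DCN had 29 and 19 reads and PDGFRA 2 and 9 reads, and the median log2 fold of the 7 fibroblast markers with a mean of at least 1 CPM was 0.18. Smooth muscle and pericyte markers (6 of 6) summed to 522 CPM with CHI3L1 siRNA and 268 CPM with control siRNA, carried by CSPG4 (411 and 207 CPM) and ACTA2 (102 and 55.4 CPM). Contractile genes of that list were low, with MYH11 at 26 and 21 reads, CNN1 at 18 and 7 and DES at 8 and 6. No marker gene in the table was at 0 reads in either library. The part of the fibroblast and smooth muscle genes in the results was not tested.

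In the CHI3L1 siRNA library 6 of the 9 members were at least 1.5-fold higher, and 0 were at least 1.5-fold lower. Of the 14815 genes that passed the filter on the mean, 7.73% were that much higher and 13.4% that much lower. The members' median log2 fold (CHI3L1 siRNA over control siRNA, with 1 CPM added to each) was 0.65, against 0.01 over all genes tested. The 6 were COL4A1, COL4A2, LAMA4, LAMB1, LAMC1 and NID1, and for COL4A1, LAMB1, LAMC1 and NID1 the whole counting interval of the ratio lay beyond 1.5-fold. In RNA of bulk cultures, more cells that express a gene and more of its RNA per cell cannot be told apart. None of the 9 reached 2-fold, which 1.03% of all genes did on the higher side. LAMC1 had the highest fold of the 9, and LAMA5 stood at about the same level in both libraries.

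**Figure D1:**
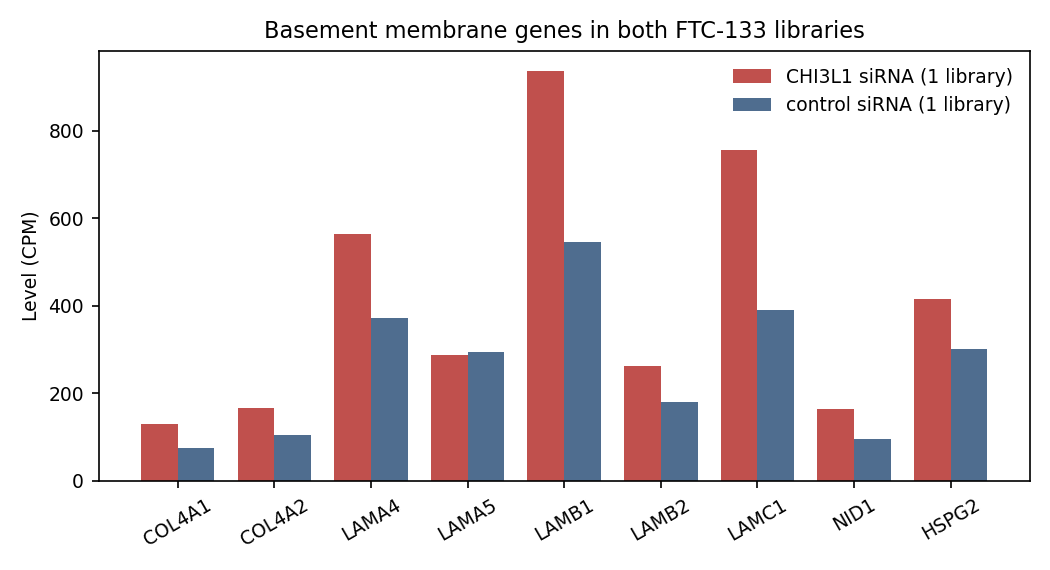
Level in CPM (vertical axis) of the 9 members in the CHI3L1 siRNA library (red, left) and the control siRNA library (blue, right), 1 library per group, so there are no error bars. LAMB1 reaches 936 CPM with CHI3L1 siRNA, and the LAMA5 bars are nearly equal.

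All 9 members have long transcripts, from 5674 nt for LAMB2 to 14327 nt for HSPG2, and folds in these libraries went with transcript length. The median log2 fold was −0.62 for the 599 coding genes of up to 1000 nt, −0.24 for those of 1000 to 2000 nt, and 0.29 for the 3032 coding genes of at least 5000 nt. Of these long-transcript genes 16.8% were at least 1.5-fold higher with CHI3L1 siRNA and 3.46% lower. Among their folds, LAMC1 stood at percentile 97.1, COL4A1 at 94.2, NID1 at 93.6, LAMB1 at 93.4, COL4A2 at 88.1, LAMA4 at 83.9, LAMB2 at 80.1, HSPG2 at 70.2 and LAMA5 at 20.3. A spline trend fitted to length (transcript and coding) and GC content explained 36.1% of the variance in fold over 12569 coding genes outside the lists used here. With that trend subtracted, 0 of the 9 members were at least 1.5-fold higher and 0 lower, against 6.13% and 7.26% of 12660 coding genes. Their median was then 0.25, and the order of the ends was kept, with LAMC1 highest at 0.48 and LAMA5 lowest at −0.53.

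**Figure D2:**
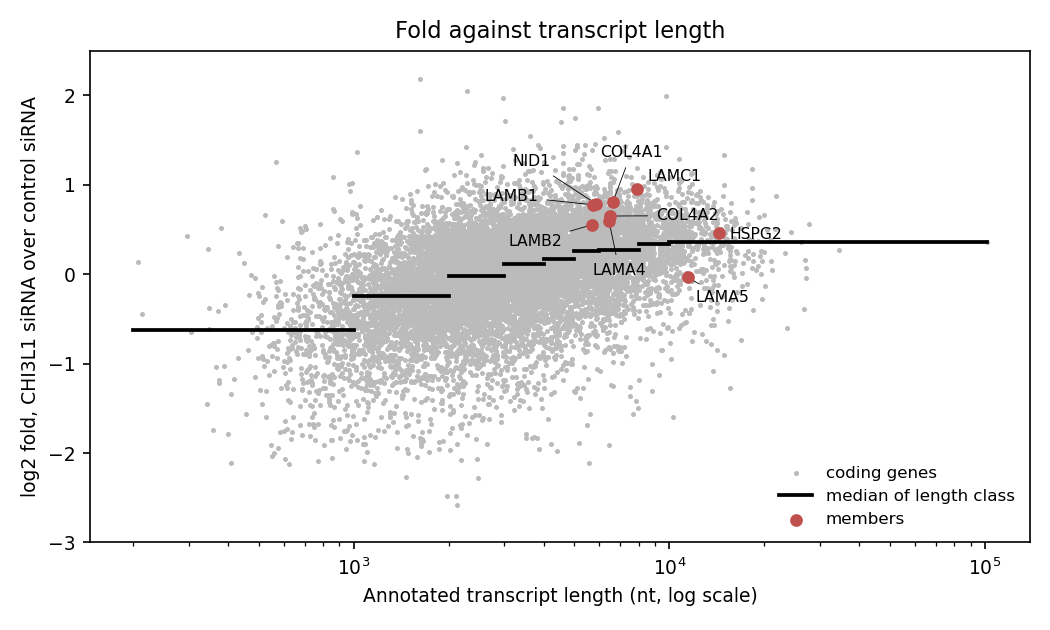
log2 fold of CHI3L1 siRNA over control siRNA (vertical axis) against annotated transcript length in nt (horizontal log axis) for coding genes (grey), with the median of each length class (black bars) and the 9 members (red). LAMA5 lies below the median of its class and the other 8 members lie above theirs.

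COL4A1 codes for the alpha1 chain of collagen IV, which enters the commonest trimer in 2 copies. It is on the minus strand of chromosome 13 (110148963 to 110307233, GRCh38, GENCODE release 29). It was at 129 CPM (2521 reads) in the CHI3L1 siRNA library and 73.7 CPM (1165 reads) in the control siRNA library, a ratio of 1.76 (1.64 to 1.88). COL4A2, the alpha2 chain that joins as a single copy, is on the plus strand (110305812 to 110513209). The annotated spans of both genes overlap, through that 1 COL4A2 transcript, but their exons do not. COL4A2 was at 166 CPM (3237 reads) with CHI3L1 siRNA and 105 CPM (1666 reads) with control siRNA, a ratio of 1.58 (1.49 to 1.67). Both chains were higher in the CHI3L1 siRNA library, COL4A1 by somewhat more. After the length and GC correction the log2 folds were 0.35 for COL4A1 and 0.25 for COL4A2.

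Per kilobase of transcript, COL4A2 stood above COL4A1 in both libraries, at 1.31 times its level with CHI3L1 siRNA and 1.46 times with control siRNA. That order depends on the length used, since per kilobase of all annotated exons COL4A2 was at 8.61 and COL4A1 at 8.77 CPM per kb with CHI3L1 siRNA. The ratio of these ratios was 0.898 (0.819 to 0.985), a value that neither the length used nor the scaling of the libraries can alter. The length and GC correction does alter it. Its log2 was −0.16 as deposited and −0.10 after that correction, for which no interval was computed. A trimer of 2 COL4A1 and 1 COL4A2 chains would run out of COL4A1 first in both libraries. Its ceiling, the level of COL4A1 per kilobase divided by its 2 copies, was 9.77 CPM per kb with CHI3L1 siRNA and 5.57 CPM per kb with control siRNA. That ceiling is a description of mRNA and says nothing of translation or assembly.

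LAMA4 and LAMA5 code for the alpha chains that carry most of the cell-binding surface of laminins. LAMA4, typical of mesenchymal and vascular basement membranes, is on chromosome 6 (112108760 to 112254939, minus strand). It was at 564 CPM (10990 reads) with CHI3L1 siRNA and 372 CPM (5883 reads) with control siRNA, a ratio of 1.52 (1.47 to 1.56), just past the 1.5-fold line that its interval spans. LAMA5, the broadly expressed alpha chain of adult epithelia, is on chromosome 20 (62307955 to 62367312, minus strand). It was at 287 CPM (5589 reads) with CHI3L1 siRNA and 294 CPM (4643 reads) with control siRNA, a ratio of 0.976 (0.939 to 1.02) whose interval holds 1. The 2 alpha chains therefore stood apart from each other. The ratio of LAMA4 to LAMA5 was 1.55 times as high (1.48 to 1.63) in the CHI3L1 siRNA library as in the control siRNA library. Per kilobase, LAMA4 made up 77.7% of LAMA4 plus LAMA5 with CHI3L1 siRNA and 69.2% with control siRNA, a difference of 8.51 percentage points (7.62 to 9.37).

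LAMB1 and LAMB2 code for the beta chains, LAMB2 being the one known for neuromuscular junctions and the kidney filter. LAMB1 (chromosome 7, 107923799 to 108003255, minus strand) was at 936 CPM (18240 reads) with CHI3L1 siRNA and 546 CPM (8627 reads) with control siRNA, a ratio of 1.71 (1.67 to 1.76). LAMB2 (chromosome 3, 49121114 to 49133118, minus strand) was at 263 CPM (5125 reads) with CHI3L1 siRNA and 179 CPM (2830 reads) with control siRNA. Its ratio of 1.47 (1.40 to 1.54) lay just under 1.5-fold, so LAMA4 and LAMB2 sit on either side of the line with overlapping intervals. LAMB1 made up 77.9% of both beta chains per kilobase with CHI3L1 siRNA and 75.1% with control siRNA, a difference of 2.78 points (1.85 to 3.68).

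LAMC1 codes for the gamma chain that all 4 laminin trimers of these members share. It lies on chromosome 1 (183023460 to 183145592, plus strand) and was at 754 CPM (14709 reads) with CHI3L1 siRNA and 390.4 CPM (6173 reads) with control siRNA. The ratio was 1.93 (1.88 to 1.99), and LAMC1 was the one member past 1.5-fold also when folds were centred on genes with transcripts of at least 5000 nt (log2 fold 0.66). Against LAMC1, the other laminin chains were lower in the CHI3L1 siRNA library than in the control siRNA library. The ratio to LAMC1 with CHI3L1 siRNA was 0.887 times that with control siRNA for LAMB1 (0.853 to 0.923), 0.784 times for LAMA4 (0.750 to 0.819) and 0.505 times for LAMA5 (0.481 to 0.531).

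**Figure D3:**
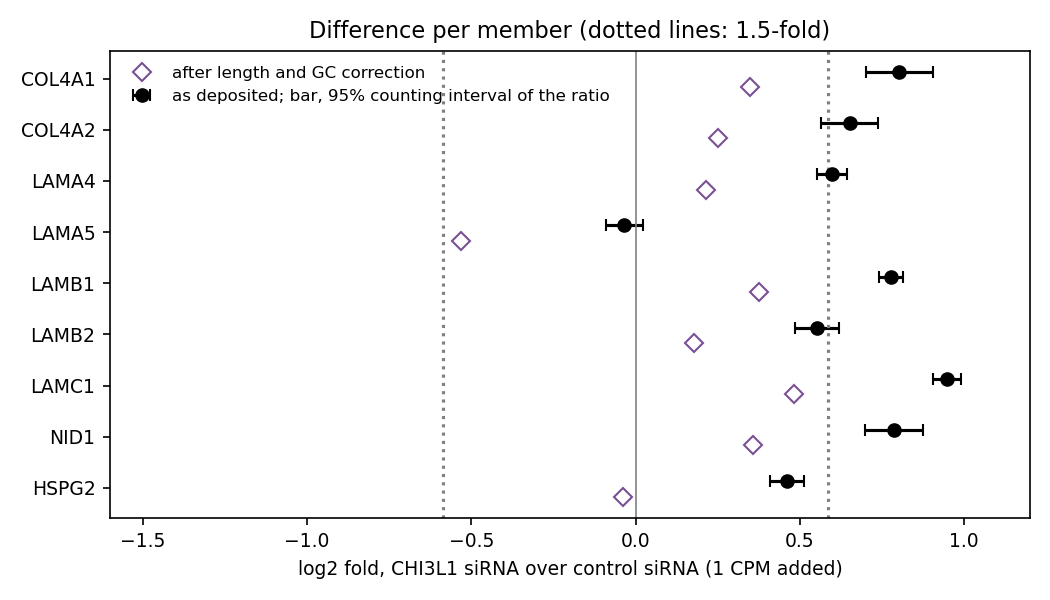
log2 fold of CHI3L1 siRNA over control siRNA (horizontal axis) for each member, as deposited (black points, with the 95% counting interval of the ratio) and after the length and GC correction (open diamonds). Dotted lines mark 1.5-fold, which 6 black points and 0 diamonds pass.

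The linker NID1 (nidogen-1, chromosome 1, 235975830 to 236065162, minus strand), which joins laminin to collagen IV, was at 165 CPM (3214 reads) with CHI3L1 siRNA and 95.2 CPM (1505 reads) with control siRNA. Its ratio was 1.73 (1.63 to 1.84). HSPG2 (perlecan, chromosome 1, 21822245 to 21937297, minus strand) was at 416 CPM (8104 reads) with CHI3L1 siRNA and 302 CPM (4772 reads) with control siRNA. Its ratio of 1.38 (1.33 to 1.43) was short of 1.5-fold. With the trend subtracted its log2 fold was −0.04, on the other side of 0. Exons of 4 of the 9 members overlap a gene on the opposite strand, among them LAMA5 with ADRM1 (1301 reads with CHI3L1 siRNA and 1244 with control siRNA) and LAMB1 with DLD (3337 and 3738 reads). The overlaps covered at most 11.7% of a member's exons (HSPG2 with LDLRAD2, 11 and 6 reads), and no source used here states whether the counting used strand, so reads of such a pair cannot be told apart.

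Levels of different genes were compared per kilobase of 1 annotated transcript. With CHI3L1 siRNA the order was LAMB1 (163 CPM per kb), LAMC1 (95.6), LAMA4 (87.6), LAMB2 (46.3), HSPG2 (29.01), NID1 (28.1), COL4A2 (25.6), LAMA5 (25.1) and COL4A1 (19.5). With control siRNA it was LAMB1 (95.3 CPM per kb), LAMA4 (57.8), LAMC1 (49.5), LAMB2 (31.5), LAMA5 (25.7), HSPG2 (21.1), NID1 (16.2), COL4A2 (16.2) and COL4A1 (11.1). LAMA5 stood at rank 8 with CHI3L1 siRNA and at rank 5 with control siRNA. The order depends on the length used. Per kilobase of all annotated exons LAMA5 stood at 20.1 CPM per kb with CHI3L1 siRNA, above both collagen IV chains. With control siRNA LAMC1 stood above LAMA4 per kilobase of coding sequence (80.8 and 68.2 CPM per kb) and of all exons (46.4 and 32.1 CPM per kb). Neighbours whose counting intervals overlapped were HSPG2 with NID1 and COL4A2 with LAMA5 in the CHI3L1 siRNA library, and NID1 with COL4A2 in the control siRNA library. LAMB1 was at percentile 97.3 of 12660 coding genes per kilobase with CHI3L1 siRNA and 93.8 with control siRNA, and COL4A1 at 72.7 and 57.9 in that order.

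Summed over the alpha chains in the table, the level was 120.5 CPM per kb with CHI3L1 siRNA and 88.4 CPM per kb with control siRNA. The beta chains summed to 215 CPM per kb with CHI3L1 siRNA and 129.8 CPM per kb with control siRNA. The sums differed by a factor of 1.36 for alpha and 1.65 for beta chains, beside a ratio of 1.93 for LAMC1 alone. LAMA4 was 72.7% of the alpha chain sum with CHI3L1 siRNA and 65.4% with control siRNA, and LAMA5 20.8% and 29.1%. LAMB1 was 76.1% of the beta chain sum with CHI3L1 siRNA and 73.4% with control siRNA, and LAMB2 21.6% and 24.3% in that order. LAMA3 made up 6.08% of the alpha chain sum with CHI3L1 siRNA and 5.06% with control siRNA, while LAMA1 and LAMA2 were each under 1% in both libraries.

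**Figure D4:**
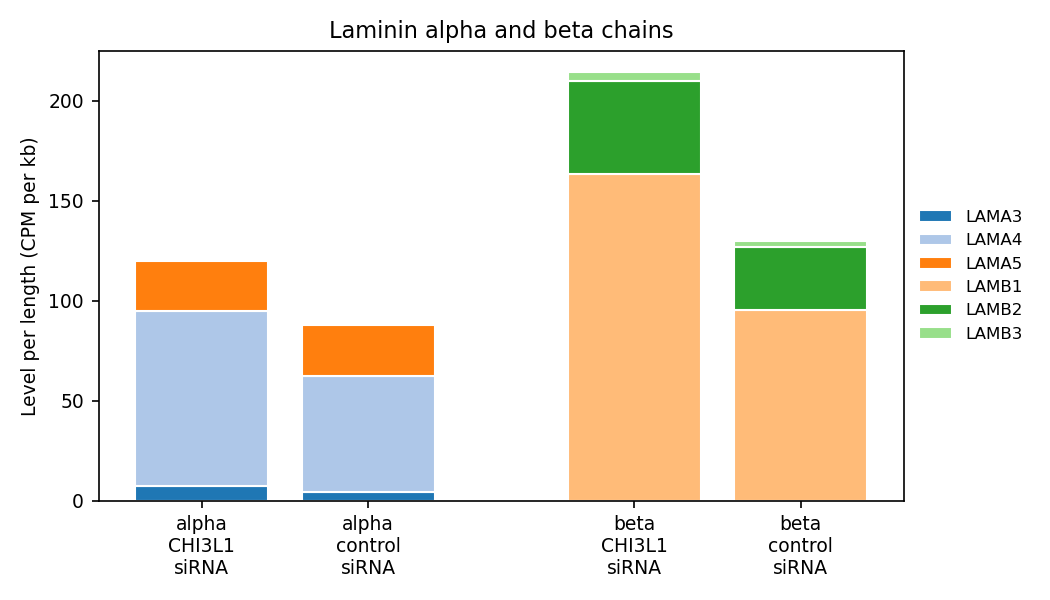
Level per length in CPM per kb (vertical axis), stacked by chain, for laminin alpha and beta chains in the CHI3L1 siRNA library (left bar of each pair) and the control siRNA library (right bar), leaving out chains under 1 CPM per kb in both. The beta bars differ by a factor of 1.65 and the alpha bars by 1.36, and the LAMA5 segment is about as tall in both libraries.

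The members can form 4 laminin trimers, 1 of each chain class with LAMC1. For both trimers with LAMA5 the scarcest chain per kilobase was LAMA5 in both libraries, so their ceiling was 25.1 CPM per kb with CHI3L1 siRNA and 25.7 CPM per kb with control siRNA. For LAMA4 with LAMB2 the scarcest chain was LAMB2, at 46.3 and 31.5 CPM per kb in that order. For LAMA4 with LAMB1 the ceiling was 87.6 CPM per kb with CHI3L1 siRNA, where LAMA4 was the scarcest chain, and 49.5 CPM per kb with control siRNA, where LAMC1 was, a log2 ratio of 0.82. With coding length in place of transcript length LAMA4 was the scarcest in both libraries, and the log2 ratio was 0.60. The ceilings of these trimers share chains and cannot all be reached together.

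Other basement membrane components were taken from a list of 25 genes, of which 18 were in the table and 7 were not analysed here. Of the 18, 11 were at least 1.5-fold higher with CHI3L1 siRNA and 0 lower, against 7.73% and 13.4% of all genes tested. Their median log2 fold was 0.69. After the length and GC correction it was 0.26, with 4 higher and 1 lower, against 6.13% and 7.26% of coding genes. As deposited 16 of the 18 were above 0, against 51.2% of all genes tested. Below 0 were COL18A1, at 6.57 CPM with CHI3L1 siRNA and 8.92 CPM with control siRNA, and TINAGL1 (3.33 and 5.06 CPM). COL18A1 was the 1 lower after the correction (log2 fold −0.78). Of its exons 16.4% overlap SLC19A1 on the opposite strand (283 and 194 reads). HMCN1, the giant matrix protein hemicentin-1, was at 107 CPM with CHI3L1 siRNA and 46.7 CPM with control siRNA. NTN4, a laminin-related netrin that hinders laminin polymerisation, was at 45.6 CPM with CHI3L1 siRNA and 19.98 CPM with control siRNA. SPARC, a collagen-binding matrix protein, was at 1592 and 837 CPM in that order. LAMB4, another beta chain, had 34 reads with CHI3L1 siRNA and 6 reads with control siRNA. LAMA3, an epithelial alpha chain, was at 78.1 CPM with CHI3L1 siRNA and 47.7 CPM with control siRNA, and LAMB3, an epithelial beta chain, at 19.6 and 12.7 CPM in that order. AGRN, LAMA3 and LAMB3 had the log2 folds nearest to the members' median (0.68, 0.70 and 0.59), which over 2 libraries is a likeness of 1 ratio only. The other collagen IV chains were low, with COL4A5 the highest at 20.2 CPM with CHI3L1 siRNA and 13.7 CPM with control siRNA, a ratio of 1.48 (1.25 to 1.75). NID2, the second nidogen, was at 227 and 131 CPM in that order, but 29.96% of its exons overlap RTRAF on the opposite strand (2796 and 4526 reads).

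Of 12 receptor genes for laminin and collagen IV, 6 were at least 1.5-fold higher with CHI3L1 siRNA and 0 lower. The shares of all genes tested were 7.73% and 13.4%. The receptors' median log2 fold was 0.55. After the correction it was 0.39, with 4 higher and 0 lower, against 6.13% and 7.26% of coding genes. ITGA6, which pairs with ITGB4 in the laminin receptor of hemidesmosomes, was at 155 CPM with CHI3L1 siRNA and 75.1 CPM with control siRNA, and ITGB4 at 148 and 75.4 CPM in that order. ITGA2, a collagen receptor chain, was at 25.95 and 13.7 CPM. ITGA1, also a collagen receptor chain, had 156 and 57 reads, which are uncertain because its exons overlap PELO on the same strand (907 and 603 reads). BCAM, a receptor for LAMA5-containing laminins, was at 23.2 CPM with CHI3L1 siRNA and 23.4 CPM with control siRNA. More abundant chains of the list were higher with CHI3L1 siRNA, ITGA3 at 1757 and 1249 CPM and ITGB1 at 1505 and 1244 CPM in that order. Of the 12 receptor genes, 10 had a log2 fold above 0 and 2 below. Above 0 were 51.2% of all genes tested and 77.5% of coding genes of at least 5000 nt. The receptors' median transcript length was 4504 nt.

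The list for folding and export of collagen IV held 19 genes, whose products also serve other collagens. Of these, 11 were at least 1.5-fold higher with CHI3L1 siRNA and 0 lower, against 7.73% and 13.4% of all genes tested. Their median log2 fold was 0.68. Their transcripts are shorter (median 2940 nt, against 6494 nt for the members). After the correction 11 were at least 1.5-fold higher, against 6.13% of coding genes, with a median of 0.65. P4HA2, a catalytic subunit of the prolyl hydroxylase that stabilises the triple helix, was at 456 CPM with CHI3L1 siRNA and 204 CPM with control siRNA. P4HA3, another catalytic subunit, was at 56.3 CPM with CHI3L1 siRNA and 20.3 CPM with control siRNA. Its exons overlap PPME1 on the opposite strand (1385 reads with CHI3L1 siRNA and 699 with control siRNA). PLOD1, a lysyl hydroxylase, was at 701 and 374 CPM in that order, and P3H3, of a prolyl hydroxylase family that acts on collagens, at 229 and 122 CPM. SEC23A, a coat protein of export vesicles, was at 338 CPM with CHI3L1 siRNA and 319 CPM with control siRNA.

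**Figure D5:**
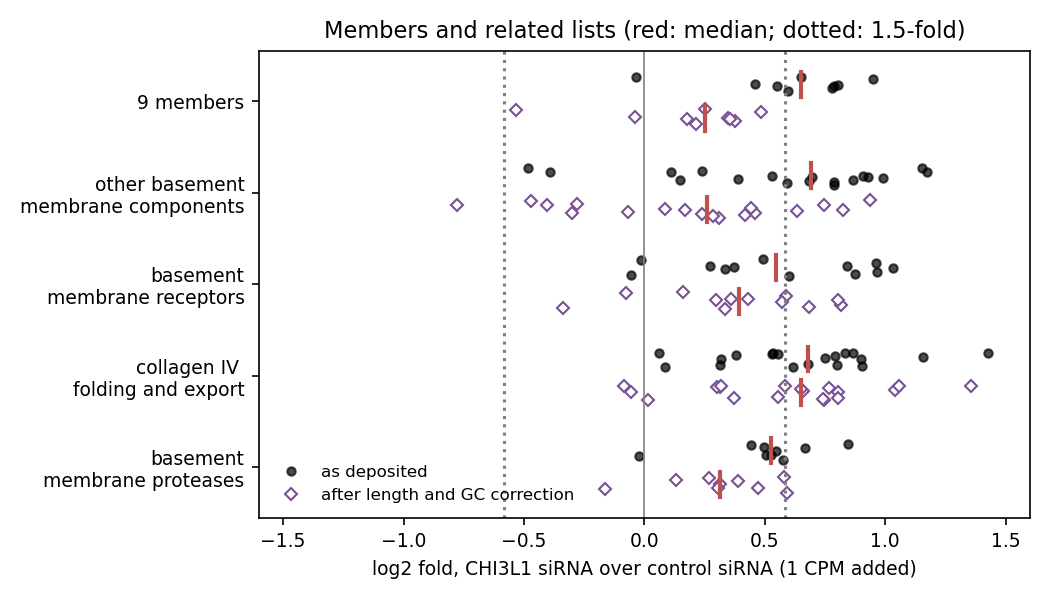
log2 fold of CHI3L1 siRNA over control siRNA (horizontal axis) for the members and related lists, as deposited (black points) and after the length and GC correction (open diamonds), with list medians in red and dotted lines at 1.5-fold. The members' median is 0.65 as deposited and 0.25 corrected, and that of collagen IV folding and export 0.68 and 0.65.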

How the data were processed

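Total RNA was extracted with Trizol and a TruSeq kit from Illumina served for library preparation, per the labels' protocols. Tools named in the submitters' processing notes, without versions or roles, are HISAT2, featureCounts, Trimmomatic, FastQC and MultiQC, with build GRCh38. The authors deposited 1 table of CPM values. Every deposited CPM equals whole reads plus 0.001, multiplied by 1 step per library (0.0513 CPM with CHI3L1 siRNA and 0.0632 CPM with control siRNA). This held for 100% of values within 0.01 read and gave the reads used for intervals. No source used here names the normalisation tool.

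Fold is log2 of CHI3L1 siRNA over control siRNA with 1 CPM added, and genes needed a mean of at least 1 CPM. No count model was run, as there are no replicates. Intervals are exact (Clopper-Pearson for a ratio, conditional for a ratio of ratios, Poisson for a level). Coordinates and lengths are from GENCODE release 29, with 1 transcript per coding gene (principal, then best supported, then longest). The length and GC correction subtracts a spline trend, with 5 basis functions for each term. The trend correction and the intervals of a ratio and of a ratio of ratios were tested on simulated data with a length trend. GC content and coding length had no effect of their own in that simulation, so it did not test those terms. Shares, trimer ceilings and promoter counts were not part of it. Tools were Python 3.11.15, numpy 2.4.6, pandas 2.3.3, scipy 1.17.1, patsy 1.0.2 and matplotlib 3.10.9. Named from each list were at most the 4 genes with the largest absolute fold and the 3 of other components nearest to the members' median. COL4A5, NID2, ITGA3, ITGB1, BCAM, SEC23A and PLAT were named for their roles after their values were seen. 1 gene of the lists is not reported here. The members and lists were chosen with earlier results of these data known.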

Additional observations from a re-analysis of the deposited data

How the results depend on the processing

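The count of members at least 1.5-fold higher was 6 at pseudocounts of 0.5 and 10 CPM and with a trimmed mean of log ratios. It was 4 after centring on the genes averaging at least 50 CPM and 4 with counting intervals wholly beyond 1.5-fold. It was 1 after centring on transcripts of at least 5000 nt, 0 after the length and GC correction and 0 at a fold of 2. Shares beside these were 6.13% of coding genes after that correction and 1.03% of all genes at a fold of 2. No share of all genes was computed under the other pseudocounts, the trimmed mean, either centring or the interval rule, so those counts have no background. The count lower was 0 in each setting. Centring shifted all folds by 0.10 and 0.29. The median log2 fold of the members was 0.55 and 0.36 with these centrings and 0.25 with the length and GC correction. Over all 6 settings of the folds, 7 of the 9 members stayed above 0, HSPG2 crossed it under the correction and LAMA5 stayed below. As deposited, 51.2% of all genes tested and 77.5% of coding genes of at least 5000 nt were above 0. The share of genes that stayed above 0 in every setting was not computed. The difference in LAMA4 share was 7.95 points with coding length, 9.82 with the union of annotated exons as length and 9.83 with the length and GC correction. The values of 9.82 and 9.83 lie above the interval given for transcript length, which covers counting error only. The log2 ratio of trimer ceilings with that correction was 0.36 for collagen IV, 0.44 for LAMA4-LAMB1-LAMC1, 0.18 for LAMA4-LAMB2-LAMC1 and −0.53 for both LAMA5 trimers. For LAMA4-LAMB1-LAMC1 it was 0.60 with coding length and 0.60 with union exons, where the scarcest chain is LAMA4 in both libraries. Why folds go with length was not tested. No paired analysis was possible because each group has 1 library.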

Other observations

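Of 12 proteases that act on basement membranes, 9 had a mean of at least 1 CPM. Of these, 2 were at least 1.5-fold higher in the CHI3L1 siRNA library and 0 lower, against 7.73% and 13.4% of all genes tested. The median log2 fold was 0.52 (0.31 after the length and GC correction, with 1 higher, against 6.13% of coding genes). The higher genes were MMP2, a gelatinase that cleaves collagen IV, at 1612 CPM with CHI3L1 siRNA and 898 CPM with control siRNA, and BMP1, a procollagen proteinase, at 443 and 279 CPM in that order. MMP14, the membrane-bound activator of MMP2, was at 5076 CPM with CHI3L1 siRNA and 3471 CPM with control siRNA, a ratio of 1.46 (1.45 to 1.48). The cathepsin CTSL was at 444 and 297 CPM in the same order, and the tissue plasminogen activator PLAT at 75.8 and 77.0 CPM.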
